A study of Mus musculus with 6 samples.

Results

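The autophagy genes described here are 42 genes of the initiation complexes, the conjugation machinery, the cargo receptors and the TFEB family of transcription factors, in RNA of cultured mouse oviductal epithelial cells. They were taken by name, by a rule that uses no measured value, from the 22800 gene symbols of the tables. Of the 42, 40 were listed under their current symbols and 2 under older symbols, Atg101 as 9430023L20Rik and Epg5 as 5430411K18Rik. The cells came from the oviducts of outbred CD1 mice and no transgene or treatment is named for either group. MOELOW is the line soon after it was established (passages 8, 9 and 10), and MOEHIGH is the same line after long serial passage in culture (passages 90, 103 and 113). Each passage gave 1 library, so there were 3 libraries per group. The headings inside the tables named other passages or none, and libraries were assigned to passages and groups by their sample records. All 6 derive from 1 line rather than from separate animals, and the p-values below measure the spread between passages only.

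Macroautophagy encloses cytoplasm in a double membrane, the autophagosome, and delivers it to lysosomes. The ULK kinase complex starts the process, a class III phosphatidylinositol 3-kinase complex marks the site, and ATG9 and ATG2 proteins supply lipid to the growing membrane. A ubiquitin-like conjugation system then attaches small proteins to its lipids, cargo receptors bring material to it, and TFEB, TFE3 and MITF activate many genes of autophagy and of lysosomes. In the oviduct, the secretory epithelial cells are studied as a source of high-grade serous carcinoma. The study passaged its line to model the onset of tumors from such cells. It reports that MOEHIGH grew faster than MOELOW and formed tumors in mice under the skin only. Those tumors were judged poorly differentiated and spindle-like.

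Values are FPKM, the number of sequenced fragments scaled to the length of the transcript and to the size of the library. MOEHIGH was set against MOELOW with limma on log2(FPKM + 1). A gene was tested when its mean over the 6 libraries reached 0.5 FPKM, which left 11621 genes, and it was called at a Benjamini-Hochberg adjusted p of 0.05 over all of them. Every log2 fold change is MOEHIGH against MOELOW on that scale, with its standard error written as SE. Summed FPKM per library ranged from 597161 to 770438, and 10888 to 10987 genes in MOELOW and 10208 to 10292 in MOEHIGH reached 1 FPKM. The epithelial label was checked against 8 markers. Epcam (0.0252 ± 0.0219 and 0 FPKM in MOELOW and MOEHIGH, SD, n = 3) and Cdh1 (0.0528 ± 0.0254 and 0.0173 ± 0.0208 FPKM), which define most epithelia, were at or near 0 in both groups, while Krt8, Krt18, Krt19, Pax8 and Msln were each above 10 FPKM in all 6 libraries. The eighth, the oviductal glycoprotein gene Ovgp1, was low at 0.875 ± 0.187 and 0.887 ± 0.162 FPKM.

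More autophagy genes fell than rose in MOEHIGH. Of the 42, 41 were tested, 5 rose, 22 fell and 14 did not pass the test. The gene of the scaffold of the initiation complex, Rb1cc1, fell most, followed by the kinase gene Ulk2 and the receptor gene Calcoco1, and the receptor gene Optn and the transcription factor gene Tfeb rose most. The 22 lower calls were 53.7% of the members tested, where 32.1% of all genes tested were lower, and the 5 higher calls were 12.2%, where 24.3% of all genes were higher. The median log2 fold change was -0.31 over the members and -0.05 over all genes tested. The libraries of the groups did not overlap in 22 members that were lower (35.5% of all genes) and in 6 that were higher (28.5% of all genes). In a test against a 2-fold change with limma's treat, Rb1cc1 and Calcoco1 were lower and Optn was higher. That was 4.88% of the members lower, beside 7.80% of all genes, and 2.44% higher, beside 2.61%. In that test the lower share of the members was thus not above that of all genes.

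The number of lower calls rested in part on the library of passage 8 and on the threshold. Without passage 8 it was 11 in place of 22, which was 26.8% of the members beside 27.2% of all genes, so that the lower share was then that of all genes. At an adjusted p of 0.01 it was 10, or 24.4% of the members beside 24.9% of all genes. Leaving out any other library gave 36.6% to 53.7% of the members lower, beside 27.6% to 37.1% of all genes. The higher calls were 5 in each of these fits, and 9 members were lower under each of the 16 alternatives that kept the threshold of 0.05. These were Rb1cc1, Ulk2, Calcoco1, Atg4a, Atg12, Gabarap, Gabarapl1, Nbr1 and Tax1bp1. Of the higher members, Optn, Tfeb, Atg4d and Atg16l1 were called under each of those alternatives in which they were tested. Scaling by quantile normalization moved the median of all genes by 0.16 and the share of higher among all calls from 43.1% to 56.7%. The members then still had more lower calls, 18, than higher calls, 6.

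Markers of other cell types also differed between the groups. Summed over 9 stromal markers, FPKM ranged from 592 to 982 in MOELOW and from 22.4 to 32.7 in MOEHIGH, and 5 of the 6 tested fell. The sum of 6 smooth muscle markers, which include Acta2 and Tagln, was 8221 to 11936 and 9.69 to 18.6 FPKM, and 5 of 5 tested fell. The sum of 8 epithelial markers was 1517 to 1905 and 2216 to 3418 FPKM, with 2 of 6 tested higher, Krt18 and Msln. Most of that sum was Krt18 (798 ± 25.3 and 2029 ± 531 FPKM) and Krt19 (850.2 ± 201 and 663 ± 165 FPKM, not called). Krt8, Pax8 and Ovgp1 did not pass the test either. Among endothelial markers (1.88 to 3.68 and 0 to 0.00998 FPKM) Cdh5 and Tie1 were listed at 0 in every library and the 1 of 5 tested fell. Among 7 leukocyte markers (64.3 to 101 and 28.3 to 43.0 FPKM) Adgre1 and Itgam were at 0 throughout, and of the 3 tested 1 rose (Csf1r) and 1 fell (Cd14). Cd14 made up most of that sum, at 78.6 ± 19.0 and 32.4 ± 6.89 FPKM, while Ptprc and Lyz2 were near 0 in both groups. The part of these differences in the results on autophagy genes was not tested, and in RNA of whole cultures fewer cells of a type and less RNA per cell cannot be told apart.

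**Figure D1:**
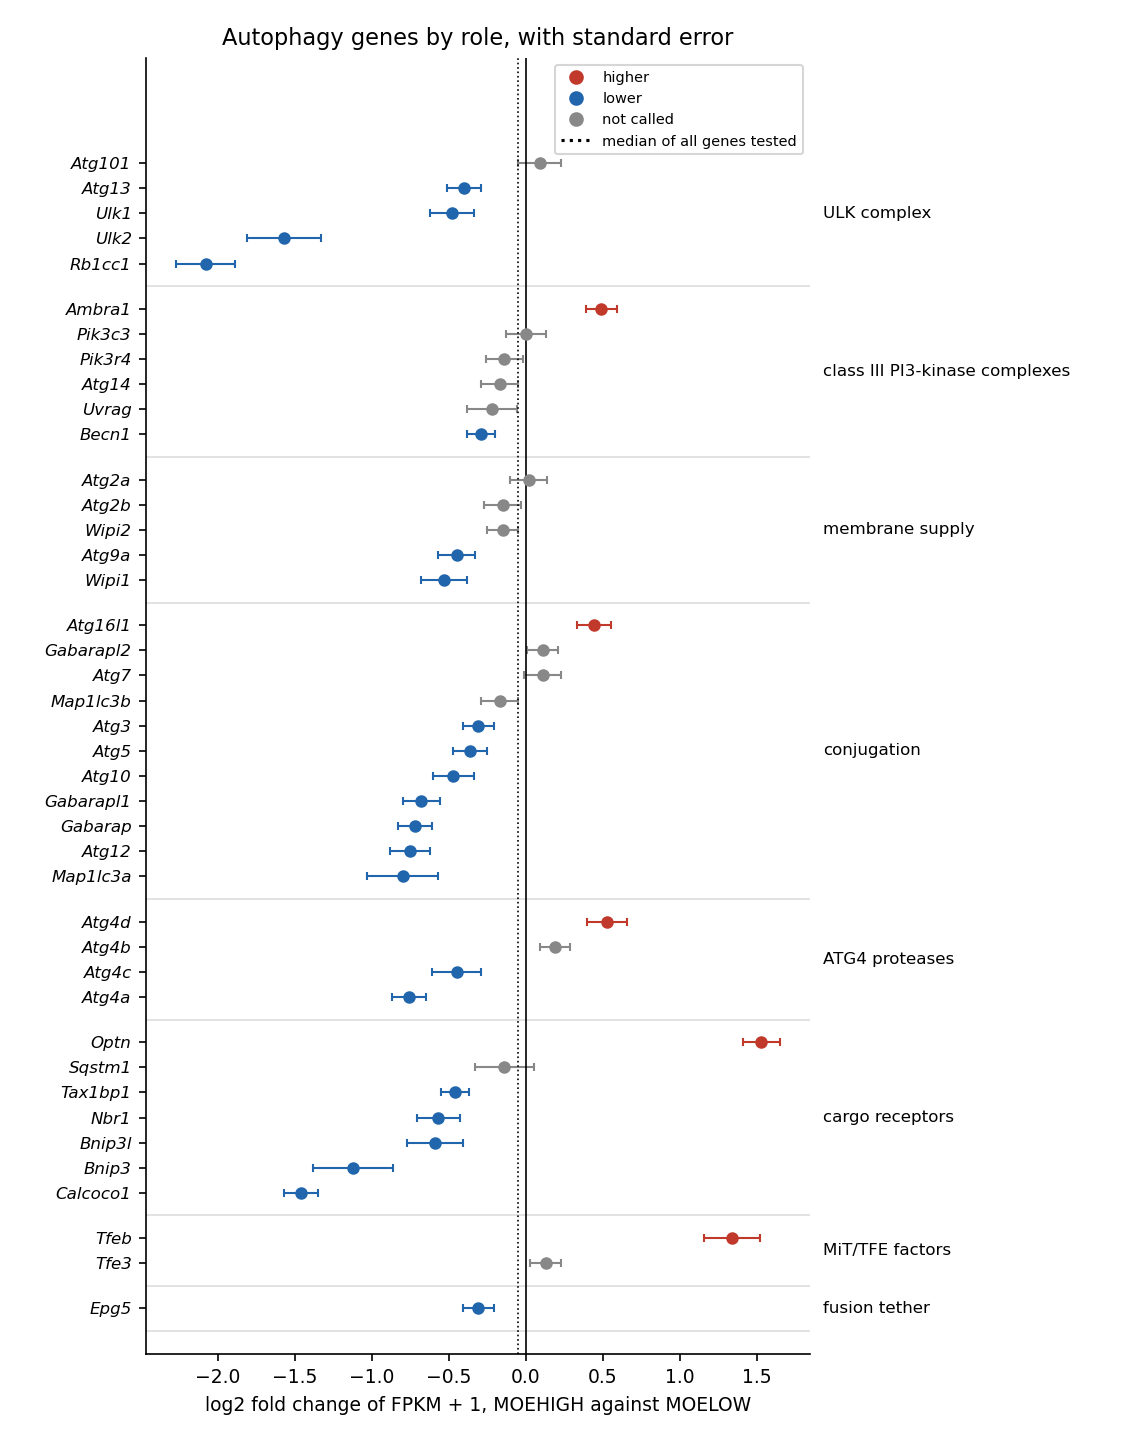
Log2 fold change of FPKM + 1 in MOEHIGH against MOELOW for the 41 autophagy genes tested, grouped by role, with bars for the standard error and colors for the call by limma at an adjusted p of 0.05. Blue points (lower, 22 genes) stand in every group but the MiT/TFE factors, and the 2 points farthest to the right are Optn and Tfeb.

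The ULK complex held the largest decrease of the 41 genes, that of Rb1cc1. The complex joins the kinases ULK1 and ULK2 to the scaffold FIP200, the product of Rb1cc1, and to ATG13 and ATG101. Of its 5 genes, 4 fell and Atg101 did not pass the test (13.0 ± 1.05 and 14.0 ± 2.34 FPKM).

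Rb1cc1, at 6214634 to 6276375 of chromosome 1 in mm10, was at 24.5, 26.7 and 32.8 FPKM in passages 8, 9 and 10 and at 5.02, 4.83 and 7.94 FPKM in passages 90, 103 and 113. All 3 MOEHIGH libraries were far below the lowest MOELOW library. The mean fell from 28.0 ± 4.26 to 5.93 ± 1.74 FPKM, 4.72-fold lower, and the log2 fold change was -2.08 (SE 0.19, limma adjusted p = 5.8e-05).

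Ulk2, on chromosome 11 from 61775598 to 61855334, was at 7.61, 7.54 and 9.15 FPKM in MOELOW and at 1.34, 1.69 and 3.53 FPKM in MOEHIGH. The groups did not overlap, and passage 113 was the highest of MOEHIGH for this gene as for Rb1cc1. The log2 fold change was -1.57 (SE 0.24, limma adjusted p = 0.00085). Its paralog Ulk1 fell less, from 12.1 ± 0.727 to 8.41 ± 1.48 FPKM (log2 fold change -0.48, limma adjusted p = 0.018). The summed FPKM of both kinases was 20.2 ± 1.49 in MOELOW and 10.6 ± 2.11 in MOEHIGH, and the share of Ulk2 in it was 40.1 ± 2.00% and 20.1 ± 7.90%. Within MOEHIGH that share was 16.4%, 14.7% and 29.1%, below the 38.1% to 42.1% of MOELOW in each library. Atg13 fell from 6.32 ± 0.435 to 4.56 ± 0.354 FPKM (log2 fold change -0.40, limma adjusted p = 0.016). Leaving out passage 8 or passage 10 ended the calls of Ulk1 and Atg13.

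**Figure D2:**
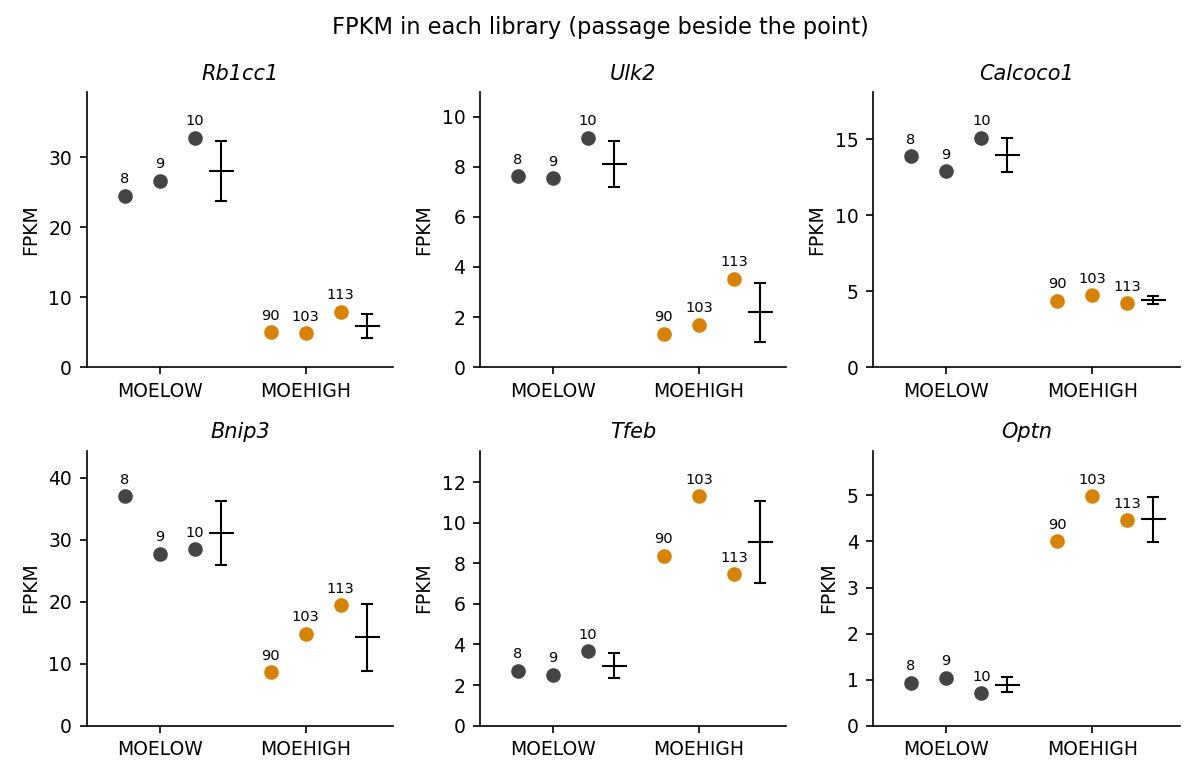
FPKM on a linear axis from 0 in each of the 6 libraries for the 6 called autophagy genes whose group means differed at least 2-fold, with the passage beside each point and the mean ± SD of 3 libraries to the right of each group. Rb1cc1, Ulk2, Calcoco1 and Bnip3 are lower, and Tfeb and Optn are higher, in all 3 MOEHIGH libraries than in any MOELOW library.

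The class III phosphatidylinositol 3-kinase complexes gave 2 calls among 6 genes, in opposite directions. That is 16.7% each way, beside 24.3% higher and 32.1% lower of all genes tested. The catalytic subunit VPS34 of the complexes is encoded by Pik3c3 and its partner VPS15 by Pik3r4, while ATG14 and UVRAG direct separate complexes to autophagosomes and endosomes. None of these 4 genes passed the test: Pik3c3 was at 6.45 ± 1.11 and 6.39 ± 0.493 FPKM, Pik3r4 at 9.03 ± 0.380 and 8.13 ± 1.08, Atg14 at 3.59 ± 0.335 and 3.08 ± 0.380, and Uvrag at 13.0 ± 1.49 and 11.1 ± 2.11. By limma at an unadjusted p under 0.05 the 6 genes of this group also gave 1 higher and 1 lower call. The scaffold gene Becn1 fell from 47.6 ± 2.32 to 38.6 ± 1.18 FPKM (log2 fold change -0.29, limma adjusted p = 0.026), which was no longer called without the library of passage 8, 9 or 103.

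Ambra1, which encodes a regulator that binds Beclin 1 and acts as a substrate receptor of a cullin ligase, went the other way. It was at 5.01, 5.19 and 5.66 FPKM in MOELOW and at 7.43, 8.18 and 7.93 FPKM in MOEHIGH. The groups stood apart with little spread in either. Its log2 fold change was 0.49 (SE 0.10, limma adjusted p = 0.0045), and with libraries scaled to equal totals it was not called.

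Of the 5 genes of membrane supply, Atg9a and Wipi1 fell. Atg9a, the gene of the multispanning lipid scramblase carried by vesicles to the forming membrane, was at 10.1 ± 1.28 FPKM in MOELOW and 7.11 ± 0.406 FPKM in MOEHIGH (log2 fold change -0.45, limma adjusted p = 0.013). Wipi1, which encodes a reader of phosphatidylinositol 3-phosphate, was at 24.2 ± 4.33 and 16.4 ± 1.90 FPKM (log2 fold change -0.53, limma adjusted p = 0.017). Both lost their calls without the library of passage 8, which had the highest value of each. The second reader, Wipi2, did not pass the test at 24.3 ± 1.61 and 21.8 ± 0.441 FPKM. Nor did the lipid transfer genes Atg2a (7.41 ± 0.345 and 7.59 ± 1.01 FPKM) and Atg2b (6.66 ± 0.395 and 5.94 ± 0.705 FPKM). Atg2a lies on chromosome 19, whose tested genes had a median log2 fold change of 0.70, the largest of the chromosomes with a member. The called members lay on chromosomes with medians from -0.29 to 0.22, and each changed by at least 0.29 in size. That 27 of 27 kept their sign relative to the median of their own chromosome was thus nearly fixed beforehand. The part of chromosome-wide shifts in these changes was not tested.

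The conjugation genes split between the subunits of the E3-like complex. ATG7 activates and ATG10 transfers ATG12, which is joined to ATG5 and binds ATG16L1, and this complex with ATG3 drives the attachment to lipid. Atg12 was at 23.8, 20.6 and 19.5 FPKM in MOELOW and at 11.9, 11.0 and 14.0 FPKM in MOEHIGH, with no overlap. It fell by 0.75 on the log2 scale (SE 0.13, limma adjusted p = 0.0015). Atg12 shares 31 bases of its span with Ap3s1, a neighbor that was lower too, at 74.4 ± 6.55 and 46.6 ± 7.22 FPKM, and how reads of such overlaps were assigned is not given in the sources used here.

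Atg5 fell from 17.1 ± 1.12 to 13.1 ± 1.28 FPKM (log2 fold change -0.36, adjusted p = 0.025), Atg3 from 31.9 ± 2.12 to 25.4 ± 1.31 FPKM (-0.31, adjusted p = 0.027) and Atg10 from 3.97 ± 0.626 to 2.57 ± 0.309 FPKM (-0.47, adjusted p = 0.016), all by limma. Each of these smaller decreases lost its call in 4 or more alternatives. Atg16l1 was at 11.6, 11.3 and 10.5 FPKM in MOELOW and at 17.1, 14.8 and 14.6 FPKM in MOEHIGH. It thus rose in every late passage while the genes of its partners Atg12 and Atg5 fell. Its log2 fold change was 0.44 (SE 0.11, limma adjusted p = 0.0086). Scarna6, a small RNA gene of 248 bases inside Atg16l1, was listed at 0 in MOELOW and was at 1.51 ± 0.682 FPKM in MOEHIGH. Atg7 did not pass the test at 7.13 ± 0.325 and 7.79 ± 1.08 FPKM.

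Of the genes whose products are joined to membrane lipid, Gabarap, Gabarapl1 and Map1lc3a fell, and Map1lc3b and Gabarapl2 did not pass the test. Gabarap, on chromosome 11 from 69991370 to 69994949, was at 163, 171 and 149 FPKM in MOELOW and at 107, 96.5 and 88.4 FPKM in MOEHIGH. Gabarapl1, on chromosome 6 from 129533192 to 129542331, was at 76.4, 70.0 and 68.1 FPKM and at 41.2, 51.9 and 40 FPKM. For both genes, every MOEHIGH library was below every MOELOW library. Gabarap fell by 0.72 on the log2 scale (SE 0.11, limma adjusted p = 0.00095) and Gabarapl1 fell by 0.68 (SE 0.12, limma adjusted p = 0.0022).

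Map1lc3a was at 24.9, 15.2 and 18.5 FPKM in MOELOW and at 9.63, 14.5 and 8.41 FPKM in MOEHIGH. Passages 9 and 103 nearly met, and the call (log2 fold change -0.80, SE 0.23, limma adjusted p = 0.018) was lost without the library of passage 8. Map1lc3b, the most widely used marker of autophagosomes, did not pass the test at 93.0 ± 5.99 and 82.9 ± 10.9 FPKM. Gabarapl2 did not pass it either at 100.4 ± 6.29 and 109 ± 8.64 FPKM.

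The 4 ATG4 proteases, which trim the conjugated proteins and later release them from membranes, gave 1 higher and 2 lower calls, and Atg4b did not pass the test. The summed level of the 4 ATG4 genes was 34.0 ± 1.83 FPKM in MOELOW and 34.0 ± 1.92 FPKM in MOEHIGH. Atg4a was at 9.15, 9.40 and 9.29 FPKM in MOELOW and at 4.81, 4.67 and 5.78 FPKM in MOEHIGH. It fell by 0.76 on the log2 scale (SE 0.11, limma adjusted p = 0.00073). Atg4d was at 5.58, 7.5 and 6.40 FPKM and at 10.3, 9.28 and 9.6 FPKM, so that here each MOEHIGH library was above each MOELOW library. It rose by a log2 fold change of 0.53 (SE 0.13, limma adjusted p = 0.0081).

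Atg4c had a call that rested on little, from 3.68 ± 0.566 to 2.44 ± 0.613 FPKM (log2 fold change -0.45, limma adjusted p = 0.042). Its libraries overlapped, at 3.06 FPKM in passage 8 and 3.14 FPKM in passage 113, and the call was lost in 9 of 15 alternatives. Atg4b, the broadest of these proteases, was at 14.6 ± 0.760 and 16.7 ± 0.659 FPKM, without overlap but not past the test (log2 fold change 0.19, limma adjusted p = 0.13). The share of Atg4a in the summed FPKM was 27.3 ± 1.08% and 14.9 ± 0.985%, that of Atg4d 19.0 ± 1.81% and 28.7 ± 1.94%, and that of Atg4b 42.9 ± 2.1% and 49.3 ± 1.04%. Of these genes, Atg4a shares 2867 bases of its span with Psmd10 (20.6 ± 1.52 and 21.3 ± 1.59 FPKM, not called) and Atg4d 1381 bases with Kri1 (14.3 ± 0.470 and 20.8 ± 4.60 FPKM, higher).

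**Figure D3:**
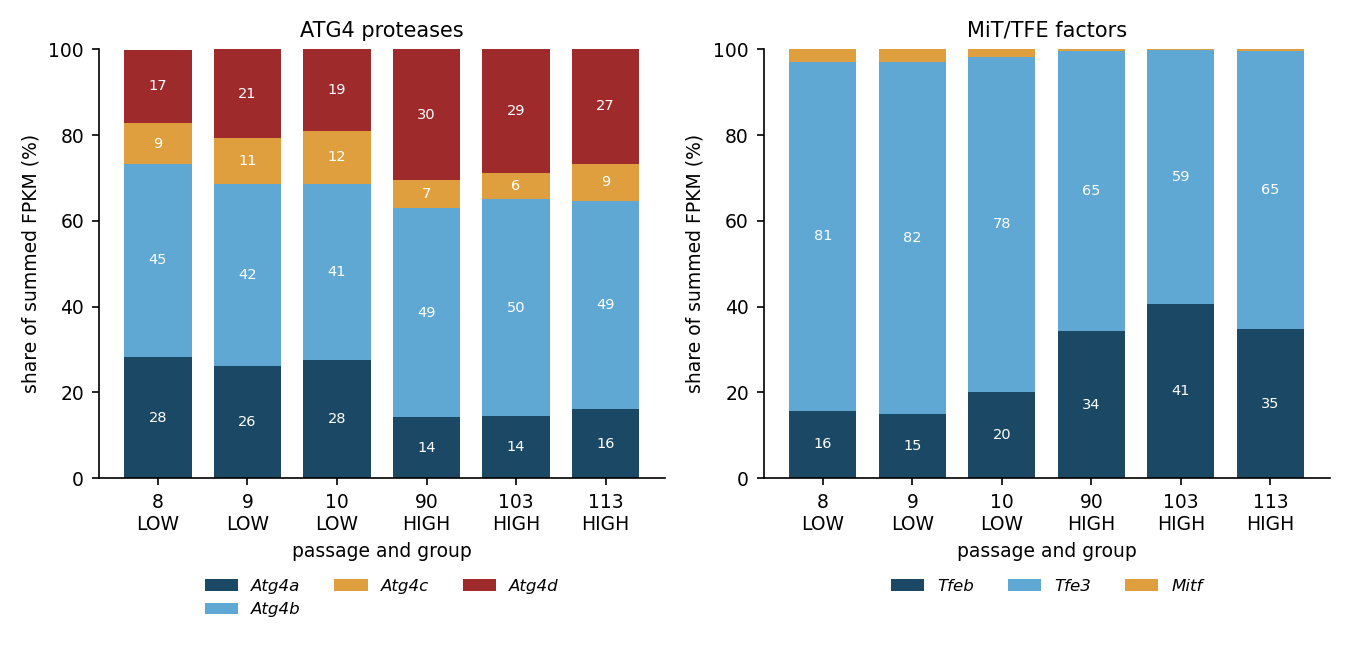
Share of the summed FPKM of the ATG4 genes (left) and of the MiT/TFE factor genes (right) that each gene made up in each library, in percent, with passage and group under the bars and shares of at least 5% printed. The Atg4a share is 26.1% to 28.2% in MOELOW and 14.2% to 16.0% in MOEHIGH, and the Tfeb share is 14.9% to 20.1% and 34.3% to 40.6%.

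The cargo receptors held the largest increase of the 41 genes on the log2 scale, that of Optn. Of 7 genes, 5 fell (71.4%, beside 32.1% of all genes tested), Optn rose (14.3%, beside 24.3%) and Sqstm1 did not pass the test. Optn encodes optineurin, a receptor for ubiquitinated cargo such as bacteria and damaged mitochondria. The gene lies on chromosome 2 from 5020521 to 5064399 and was at 0.928, 1.04 and 0.706 FPKM in MOELOW and at 4.0, 4.98 and 4.46 FPKM in MOEHIGH. The highest early passage was far below the lowest late passage. The mean rose 5.02-fold, from 0.892 ± 0.170 to 4.48 ± 0.490 FPKM, and the log2 fold change was 1.53 (SE 0.12, limma adjusted p = 2.9e-05).

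Calcoco1, on chromosome 15 from 102706777 to 102722178, encodes a paralog of the receptor NDP52 that takes part in autophagy of the endoplasmic reticulum. It was at 13.9, 12.9 and 15.1 FPKM in MOELOW and at 4.39, 4.74 and 4.20 FPKM in MOEHIGH. The spread within each group was small beside the difference, 3.15-fold between the means. The log2 fold change was -1.46 (SE 0.11, limma adjusted p = 1.9e-05).

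Bnip3 and Bnip3l encode receptors in the outer membrane of mitochondria that are induced by hypoxia. Bnip3, on chromosome 7 from 138890836 to 138909506, was at 37.0, 27.7 and 28.5 FPKM in MOELOW and at 8.61, 14.8 and 19.4 FPKM in MOEHIGH. Bnip3l was at 40.4, 38.2 and 44.4 FPKM and at 21.4, 24.9 and 36.2 FPKM. Neither gene overlapped between the groups, but passage 113 came close to MOELOW for Bnip3l. Bnip3 fell by 1.12 on the log2 scale (SE 0.26, limma adjusted p = 0.0074), and Bnip3l fell by 0.59 (SE 0.18, limma adjusted p = 0.026). The call of Bnip3l was lost in 7 of 16 alternatives.

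Sqstm1, which encodes the receptor p62, had the highest mean of the 42 genes and the widest spread in FPKM. It was at 277, 257 and 227 FPKM in MOELOW and at 230.0, 298 and 174 FPKM in MOEHIGH, and the late passages lay on both sides of the early ones. The log2 fold change was -0.14 (SE 0.19, limma adjusted p = 0.55), and its sign turned without passage 113. Nbr1, the gene of a relative of p62, fell from 21.8 ± 1.52 to 14.4 ± 2.56 FPKM (log2 fold change -0.57, limma adjusted p = 0.0098). Tax1bp1, a further receptor for ubiquitinated cargo, was at 62.3, 56.1 and 59.7 FPKM in MOELOW and at 42.7, 43.2 and 42.9 FPKM in MOEHIGH. These late passages were almost equal, and the log2 fold change was -0.46 (SE 0.09, limma adjusted p = 0.0033).

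Among the MiT/TFE transcription factors, Tfeb rose. The gene lies on chromosome 17 from 47737037 to 47792416 and was at 2.70, 2.50 and 3.67 FPKM in MOELOW and at 8.38, 11.3 and 7.46 FPKM in MOEHIGH. The lowest late passage was about double the highest early passage. The mean rose 3.07-fold, from 2.95 ± 0.625 to 9.06 ± 2.02 FPKM, and the log2 fold change was 1.34 (SE 0.18, limma adjusted p = 0.00042). Tfe3 was the most abundant of these factors in every library and did not pass the test at 14.0 ± 0.251 and 15.5 ± 1.32 FPKM. Mitf, at 0.436 ± 0.112 and 0.0734 ± 0.0282 FPKM, was under the filter on low values and was not tested. Of the summed FPKM of the 3 factors, Tfeb made up 16.9 ± 2.80% in MOELOW and 36.5 ± 3.56% in MOEHIGH. FPKM measures RNA only, and the activity of these factors depends on their place in the cell.

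Epg5, which encodes a tether between autophagosomes and late endosomes or lysosomes, fell from 2.52 ± 0.0876 to 1.84 ± 0.178 FPKM. Its libraries did not overlap, but the log2 fold change of -0.31 (SE 0.10, limma adjusted p = 0.035) lost its call or, under quantile normalization (0.10), its sign in 9 of 15 alternatives.

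The MiT/TFE factors bind the E-box CACGTG, and promoter windows of the members were searched for these letters. RefSeq windows of 300 bases, from 250 before to 50 after a gene start in GRCm38.p6, were found for 34 of the 42 members in 43 windows. The motif reads the same on both strands. It was present in 5 member windows (11.6%) and in 2349 of 32851 windows of all genes (7.15%). The 30 bases around each match are shown on the strand of the gene with the motif in capitals, because they are the windows of the set that hold it.
Atg3: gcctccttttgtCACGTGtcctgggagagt
Atg3: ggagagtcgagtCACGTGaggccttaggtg
Atg5: cggagcgcttgcCACGTGgtcttggtgacg
Bnip3: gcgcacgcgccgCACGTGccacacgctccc
Atg14: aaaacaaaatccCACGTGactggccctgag
Atg7: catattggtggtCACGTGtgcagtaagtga
The 2 stretches of Atg3 lie at chr16:45158723-45158752 and chr16:45158746-45158775 on the plus strand, with the motif starting 94 and 71 bases before the start. That of Atg5 lies at chr10:44268313-44268342 on the plus strand, 14 bases before a start just inside the gene. The gene runs from 44268322 to 44364299, so this motif is within its span. That of Bnip3 lies at chr7:138909597-138909626 on the minus strand, 108 bases before the start. That of Atg14 lies at chr14:47568418-47568447 on the minus strand and reaches from the promoter across the start. That of Atg7, at chr6:114670952-114670981 on the plus strand, belongs to a start inside the gene, which runs from 114643127 to 114860604. The longer form TCACGTGA was in the second stretch of Atg3, and in 0.974% of all windows. Of these 5 genes, Atg3, Atg5 and Bnip3 fell, where 32.1% of all genes tested fell and 24.3% rose. Atg7 and Atg14 did not pass the test, and none rose at an unadjusted p under 0.05 by limma either. The calls of Atg3, Atg5 and Bnip3 were lost in 4, 6 and 1 of 16 alternatives. So few genes cannot be set against those shares. A match of letters is a description of the sequence and shows no binding.

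The genes around the core machinery were taken as 5 further lists. Among all genes tested, 24.3% were higher and 32.1% were lower. The 29 genes of mTORC1 and AMPK signaling that were found, of 30 listed, gave 27 tested genes. Of these, 3 were higher (11.1%) and 9 lower (33.3%), and the lower share was near that of all genes. The median log2 fold change was -0.05, that of all genes. Fnip2, a partner of folliculin, rose from 4.04 ± 0.171 to 7.43 ± 0.501 FPKM. The AMPK subunit gene Prkag2 fell from 13.5 ± 0.282 to 6.18 ± 0.427 FPKM, and genes of the mTORC1 inhibitors Sesn1 (7.20 ± 1.97 to 3.09 ± 0.972 FPKM) and Ddit4 (17.6 ± 1.01 to 9.51 ± 2.70 FPKM) fell too. The count of higher genes was 6 without the library of passage 113.

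Of 26 tested genes of a list of other autophagy factors, 4 rose (15.4%) and 11 fell (42.3%). Among all genes tested, 24.3% rose and 32.1% fell, and with so few genes the difference is a few calls. Atg9b, the paralog of Atg9a, was at 0.477, 0.602 and 0.370 FPKM in MOELOW and at 40.3, 44.8 and 24.7 FPKM in MOEHIGH. That is a 75.9-fold rise, while its paralog fell (log2 fold change 4.63, SE 0.21, limma adjusted p = 1.6e-06). Atg9b shares 294 bases with Nos3, which stayed at 0.136 ± 0.0152 FPKM or below in the group means. The mitophagy receptor genes Fkbp8 (81.6 ± 5.90 to 119 ± 28.2 FPKM) and Bcl2l13 (6.72 ± 0.276 to 9.73 ± 1.10 FPKM) rose. For Fkbp8 (limma adjusted p = 0.041), passage 113 was at 86.7 FPKM, almost level with the 86.1 FPKM of passage 8. Trp53inp2, which encodes a nuclear protein that moves to autophagosomes, fell from 21.5 ± 3.63 to 4.14 ± 1.09 FPKM, the lysosomal membrane gene Dram2 from 31.6 ± 1.41 to 10.1 ± 2.76 FPKM, and the glycogen receptor gene Stbd1 from 16.6 ± 0.497 to 5.82 ± 0.815 FPKM. Leaving out passage 8, 9, 10 or 90 brought the higher genes of this list to 2.

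Of 14 genes for the fusion of autophagosomes with lysosomes, 3 were higher (21.4%) and 6 lower (42.9%), beside 24.3% and 32.1% of all genes. Plekhm1, the gene of an adaptor of the HOPS tether, rose from 5.05 ± 0.320 to 9.29 ± 0.260 FPKM, and of the HOPS subunit genes Vps16 and Vps18 rose while Vps41 fell from 21.7 ± 0.681 to 15.5 ± 1.52 FPKM. The SNARE genes Vamp8 (86.1 ± 7.79 to 62.7 ± 10.1 FPKM) and Ykt6 (48.0 ± 4.61 to 35.1 ± 1.71 FPKM) fell. Of 16 genes of the V-ATPase, the proton pump that acidifies lysosomes, 1 was higher (6.25%) and 7 lower (43.8%). Both of these lists are small, so a few calls make the difference from all genes. Atp6v1b2 rose from 26.0 ± 2.35 to 39.0 ± 2.79 FPKM, and Atp6v0e (164 ± 19.2 to 77.3 ± 8.95 FPKM), Atp6ap1 (96.8 ± 9.05 to 58.8 ± 7.5 FPKM) and Atp6v0d1 (99.9 ± 13.4 to 61.3 ± 11.8 FPKM) fell.

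Lysosomal proteins had the highest share of lower genes of the 5 lists. Of 41, 27 fell (65.9%, beside 32.1% of all genes) and 1 rose (2.44%, beside 24.3%). The median log2 fold change was -0.59. The gene that rose was Gm2a, a cofactor of ganglioside breakdown, from 8.54 ± 1.2 to 21.5 ± 5.72 FPKM. The protease gene Tpp1 fell from 27.0 ± 0.668 to 10.6 ± 1.43 FPKM, the mannosidase gene Man2b1 from 19.6 ± 0.727 to 7.76 ± 0.920 FPKM, and the glucosidase gene Gaa from 29.9 ± 2.68 to 13.6 ± 1.18 FPKM. Without the library of passage 113 the higher count was 3. Without passage 8 the lower share was 58.5% in this list and 29.6% to 38.5% in the other 4, beside 26.8% of the autophagy genes.

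**Figure D4:**
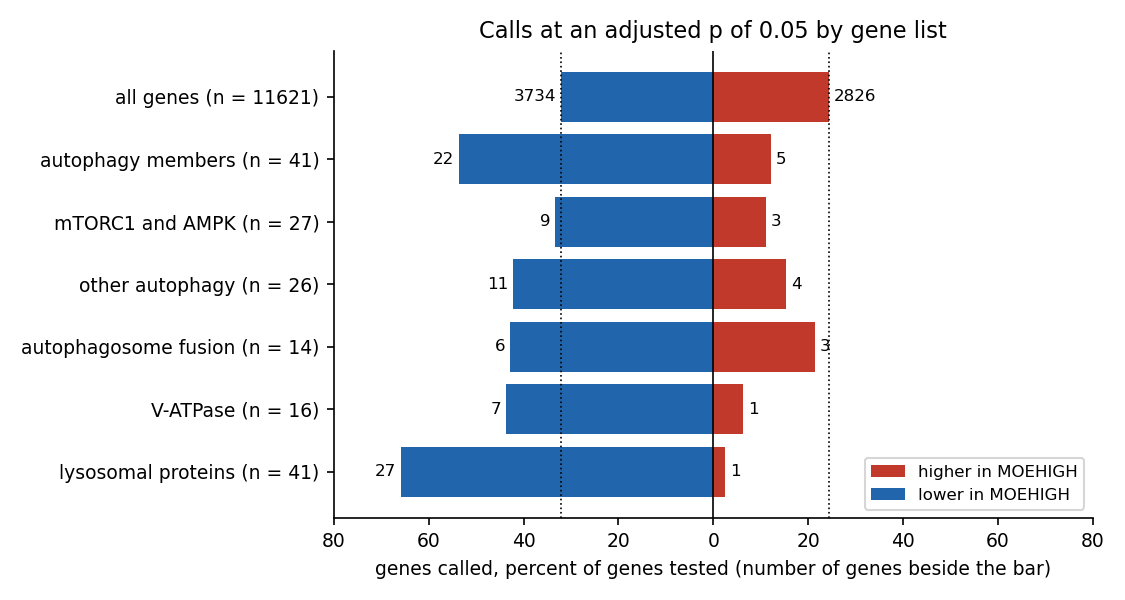
Percent of tested genes called lower (blue, left) and higher (red, right) in MOEHIGH at an adjusted p of 0.05 by limma, for all genes, the autophagy genes and 5 further lists, with the number of genes beside each bar and dotted lines at the shares of all genes. The autophagy genes have 53.7% lower and 12.2% higher calls, against 32.1% and 24.3% of all genes, and without passage 8 they have 26.8% lower, against 27.2%.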

How the data were processed

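The study's libraries were strand-specific and made after removal of ribosomal RNA. Per the labels and the methods, the authors mapped reads on mm10 by TopHat2 2.0.8b and computed FPKM for UCSC genes by Cufflinks and Cuffdiff 2.1.1. They deposited these FPKM values as a table for each of the 6 libraries. In 5 of 6 tables the column of values was headed by a passage other than that of the sample record, in 3 of them a passage of the other group, and in the sixth by none. In 6 of 6 the heading was the name just before that of the record when the names are put in text order, as in a table shifted by 1 column. Each library was taken from its sample record, and the groups and every value given for a passage rest on that. The study lists Acta2 among the genes most reduced in MOEHIGH. By the sample records, Acta2 was at 5145, 4022 and 4017 FPKM in MOELOW and at 6.91, 6.30 and 4.00 FPKM in MOEHIGH. The order of passages within a group has no such reference. No read counts were used, and depth in absolute terms is unknown. The tables held 23141 entries, and where symbols repeated (577 entries, 236 symbols) that with the highest mean was used.

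The test was limma 3.58.1 (R 4.3.3) on log2(FPKM + 1), with a variance trend, no block and a minimum mean of 0.5 FPKM. This scale understates changes of low genes. Adjusted p-values are Benjamini-Hochberg over all genes tested. The test was checked on simulated data with independent normal noise on the same log scale, in which few genes changed, each at least 2-fold. In these data many more genes were called and most changes of members were smaller, so that check does not vouch for the calls given here. Tables and plots were made with Python 3.11.15, numpy 2.4.6, pandas 2.3.3 and matplotlib 3.10.9. All 42 autophagy genes are named. Of the 5 further lists, up to 3 called genes per direction are named, those with the largest log2 fold change whose groups did not overlap and whose mean reached 5 FPKM. Neighbors that overlap a member were added after their values were seen. The members and lists were chosen with earlier results of these data known. Rragc of the mTORC1 list was not analysed here. Alternatives were 4 ways to scale libraries, other pseudocounts (0.1 and 0.01), a filter of 5 FPKM or none, a stricter adjusted p of 0.01, a 2-fold minimum (treat), no variance trend, a replicate block, and each library left out in turn. Some results are not reported here.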

Additional observations from a re-analysis of the deposited data

How the results depend on the processing

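Of the 22 lower autophagy genes, 13 lost their call under at least 1 alternative kept at an adjusted p of 0.05, and Epg5 changed sign. The count of lower members was 10 at an adjusted p of 0.01 (24.4%, beside 24.9% of all genes). It ranged from 11 to 22 when each library was left out. In the test against a 2-fold change it was 2 (4.88%, beside 7.80% of all genes), and 1 member was higher. A mean of at least 5 FPKM left 8325 genes tested, of which 2350 were lower (28.2%). At that filter 19 of 36 members were lower (52.8%). Over all genes the 2-fold test called 303 higher and 907 lower. In that test the counts were 0 higher and 0 lower for mTORC1 and AMPK, fusion and the V-ATPase, 1 and 4 for other autophagy, and 0 and 1 for lysosomal proteins, where limma at an unadjusted p under 0.05 without a minimum fold gave 3 and 9, 3 and 6, 1 and 7, 4 and 11, and 1 and 28. A mean of at least 5 FPKM left 23 genes of mTORC1 and AMPK. It took out Rragb (mean 4.16 FPKM) and Tsc1 (mean 4.63 FPKM), both called higher. Higher genes of mTORC1 and AMPK were 5 under quantile normalization, 1 at that filter and 3 to 6 without each library. Those of other autophagy were 2 at equal totals, upper-quartile scaling and an adjusted p of 0.01, and 2 to 4 without each library. Those of the V-ATPase were 2 under median-ratio scaling, and those of lysosomal proteins 4 under quantile normalization and 1 to 3 without each library.

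Among members, signs turned under quantile normalization for Pik3c3 (0.17), Atg14 (0.15), Atg2b (0.01) and Epg5 (0.10), under median-ratio scaling for Pik3c3 (0.05), under upper-quartile scaling for Atg101 (-0.02) and Atg2a (-0.07), and at equal totals for Atg2a (-0.03). They also turned without passage 10 (0.12) or 90 (0.04) for Pik3c3, without passage 9 (-0.01) or 103 (-0.06) for Atg2a, which reached 0.11 without passage 90, and without passage 113 for Sqstm1 (0.05, against -0.33 without passage 103). Atg4b was called under quantile normalization. The causes were not tested. With a replicate block, 5 members were higher and 21 lower, Epg5 lost its call, and 2 lysosomal genes were higher. Same-numbered libraries deviated together with r of -0.02, -0.15 and 0.12, and not every library correlated best with its own number, so the numbers do not pair the libraries. FPKM without counts sets no limit on what the depth can show. Sh3glb1 and Atp6v1d, of the further lists, were listed at 0 in part of a group beside high values, which can be a failed estimate.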
